A study of Mus musculus with 24 samples.

Results

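The mRNA levels of 39 genes that act in the cell cycle and in DNA replication were followed in mouse bone marrow-derived macrophages (BMDMs), before and during stimulation with lipopolysaccharide (LPS). The genes were taken by symbol from the normalised expression table. All 39 of 39 symbols were found among the 24273 genes of the table, and all 39 were among the 13901 genes whose values were high enough to be tested. By their textbook roles, 19 of them act in G1/S and S phase and 20 in G2 and M phase.

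The study asked which genes FOS controls in macrophages that respond to LPS, a bacterial ligand of the receptor TLR4. BMDMs of C57BL/6 mice were labelled LysM-Cre, the control, or FosKO. The control cells carry the LysM-Cre driver, a Cre recombinase placed at the lysozyme locus Lyz2 and active in myeloid cells. The cells labelled FosKO carry that driver and floxed alleles of Fos (Fos-fl/fl). The series text gives the controls as LysM-Cre alone, while the study text also gives them 1 floxed Fos allele, so the exact control allele is uncertain here. Bone marrow cells had been grown in L-cell conditioned medium, a source of the growth factor CSF1, and then held overnight in low serum without it. Cells of each genotype were left untreated (0 h) or received 100 ng/ml LPS for 0.5, 1 or 2 h, with 3 libraries in each of the 8 groups.

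Before a cell divides, it loads the MCM helicase onto replication origins with CDC6 and CDT1, opens the DNA with CDC45 and GINS, and copies it with polymerases held by the PCNA clamp. It then condenses its chromosomes, builds a spindle and divides under the control of CDK1 with its cyclins and of the Aurora and Polo-like kinases. The transcription of replication genes is driven by E2F factors, and that of mitotic genes by complexes that recognise CHR and CCAAT elements in their promoters. Macrophages grown in CSF1 proliferate in culture, and LPS is known to stop that proliferation.

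Promoter sequences are shown for 5 members, so that letters matching the elements named above can be seen beside the expression values that follow. Prc1, Cenpf and Plk1 had some of the smallest p-values in the genotype comparisons. Ccnb2 is a mitotic cyclin whose promoter holds letters that match both mitotic elements. Mcm6 is a replication gene whose promoter matched the E2F letters searched, as it did in 4 of 15 G1/S and S phase members. Each line gives the 250 bases before a RefSeq start site, 5′ to 3′ on the gene's strand, from RefSeq sequence of the GRCm38.p6 build, with matches to the searched letters in capitals. The windows are chr7:80294201-80294450 on the plus strand for Prc1, chr1:189688087-189688336 on the minus strand for Cenpf, chr7:122159185-122159434 on the plus strand for Plk1, chr9:70421555-70421804 on the minus strand for Ccnb2 and chr1:128359706-128359955 on the minus strand for Mcm6.
Prc1: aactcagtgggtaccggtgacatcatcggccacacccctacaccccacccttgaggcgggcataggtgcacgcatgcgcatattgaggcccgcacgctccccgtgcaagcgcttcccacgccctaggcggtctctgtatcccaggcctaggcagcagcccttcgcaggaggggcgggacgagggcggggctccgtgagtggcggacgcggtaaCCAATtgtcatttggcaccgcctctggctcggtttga
Cenpf: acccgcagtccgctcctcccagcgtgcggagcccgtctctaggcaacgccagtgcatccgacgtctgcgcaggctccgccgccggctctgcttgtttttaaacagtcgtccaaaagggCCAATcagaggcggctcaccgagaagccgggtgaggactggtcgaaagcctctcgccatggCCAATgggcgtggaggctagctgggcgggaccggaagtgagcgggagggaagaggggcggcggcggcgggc
Plk1: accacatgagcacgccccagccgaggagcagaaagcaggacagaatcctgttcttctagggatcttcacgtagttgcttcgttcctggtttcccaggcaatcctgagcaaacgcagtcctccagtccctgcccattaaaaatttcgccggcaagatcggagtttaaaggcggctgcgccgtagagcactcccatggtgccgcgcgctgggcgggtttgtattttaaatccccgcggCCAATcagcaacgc
Ccnb2: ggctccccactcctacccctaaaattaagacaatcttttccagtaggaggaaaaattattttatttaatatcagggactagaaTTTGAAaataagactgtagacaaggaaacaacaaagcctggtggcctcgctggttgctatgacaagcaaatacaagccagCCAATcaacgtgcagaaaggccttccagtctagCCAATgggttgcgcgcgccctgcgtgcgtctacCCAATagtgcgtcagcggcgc
Mcm6: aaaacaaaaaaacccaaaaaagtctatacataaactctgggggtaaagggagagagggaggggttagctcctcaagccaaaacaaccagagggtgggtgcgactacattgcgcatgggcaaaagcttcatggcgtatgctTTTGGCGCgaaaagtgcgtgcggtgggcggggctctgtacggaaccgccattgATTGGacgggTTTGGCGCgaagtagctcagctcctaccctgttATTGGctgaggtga

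The letters searched on both strands were TTTGAA for the CHR, TTTCCCGC or TTTGGCGC for E2F, and CCAAT, and no match overlaps another in the windows shown. The Ccnb2 window held 1 CHR and 3 CCAAT matches. The Cenpf window held 2 CCAAT matches, and the Plk1 and Prc1 windows 1 each. A window before a second Prc1 start site, not printed, also held 1 CHR. The Mcm6 window held 2 E2F matches and 2 CCAAT matches, written as ATTGG where they lie on the other strand. The window of Ccne1, also a G1/S and S phase member and not printed, held none of the searched letters.

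Promoter entries matched 32 of the 39 members. Over all start sites of a gene, CHR letters were present in 7 of 17 G2 and M phase members (41.2%) and in 3 of 15 G1/S and S phase members (20.0%), against 13% of 9546 tested genes with an entry. CCAAT was present in 15 of 17 (88.2%) and 10 of 15 (66.7%), against 40.6% of the tested genes. The E2F letters were present in 4 of 15 G1/S and S phase members (26.7%) and in 0 of 17 G2 and M phase members, against 2.93% of the tested genes. Among all 27032 genes with a promoter entry the shares were 18.3% for CHR, 37.5% for CCAAT and 1.51% for E2F. These are descriptions of the letters in the windows and not evidence of a bound factor. Bases after a start site were not searched, so a window without a match does not show that a gene lacks the element. The printed Prc1 window ends within the CHR letters that were found before its second start site.

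All expression values below are normalised log2 values as deposited, in which a difference of 1 is a doubling. Levels are compared between libraries for one gene and not between genes, since the values are not per length. The depth of each library is unknown, since the methods give only a typical yield, and errors therefore come from the spread between libraries, pooled over the 8 groups in the fit. The methods call these biological replicates, but neither they nor the labels say whether each came from a separate mouse, so p-values measure the spread between these libraries. Over all tested genes the libraries of a group differed little, with a median SD per gene of 0.06 to 0.08. Single members could vary more, and at 0 h in FosKO-labelled libraries their SD ran from 0.01 (Aurka) to 0.29 (Birc5). In 5 libraries, all at 0.5 or 1 h, the 18S transcript Rn18s-rs5 was low (16.65 to 17.00, against 18.57 to 19.39 in the other 19). All 8 macrophage markers on the list were tested, among them Csf1r (14.95 to 15.28), Cd68 (15.05 to 15.38), Adgre1 (14.61 to 15.21) and Mertk (9.07 to 10.99).

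The level of the targeted gene did not verify the labels, while its response to LPS differed between them. Fos was 11.17, 11.07 and 11.10 in the LysM-Cre libraries at 0 h and 12.72, 12.41 and 12.67 in those labelled FosKO, and the second group was also the higher one at 1 and 2 h, though not at 0.5 h. With 0.5 h of LPS Fos rose by 2.41 in LysM-Cre and its change with the FosKO label was 0.15 and was not called, a difference between the responses of -2.26 (limma adjusted p 1.38e-09). The table gives Fos as a single value, so its deleted portion was not read apart from what remains. Lyz2, where Cre is placed, ranged from 10.87 to 11.04 at 0 h in the control and from 16.08 to 16.12 in the other genotype. Every genotype direction below is given by the labels, and the genotypes and this difference at the Cre locus cannot be told apart. The labels and methods do not give the copy number of LysM-Cre in either genotype, and whether it differs was not tested.

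The first comparison was of the genotypes before LPS. Mitotic genes were lower in FosKO-labelled libraries, while most genes of origin licensing and of the replication fork differed little. By limma with Benjamini-Hochberg adjustment over all tested genes, 29 of the 39 members were lower and 0 were higher at 0 h, where 15.9% of all tested genes were called lower and 35.4% in either direction. The median log2 difference over the 39 members was -0.36 and that over all tested genes was 0.002. All 20 G2 and M phase members were lower (median -0.56, from -0.90 to -0.24), and 9 of 19 G1/S and S phase members were lower (median -0.20, from -0.62 to 0.10). In 28 members the 3 libraries labelled FosKO all lay below the 3 LysM-Cre libraries, as they did for 20.5% of all tested genes. RNA was taken from whole cultures, so fewer dividing cells and less RNA per cell cannot be told apart.

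**Figure D1:**
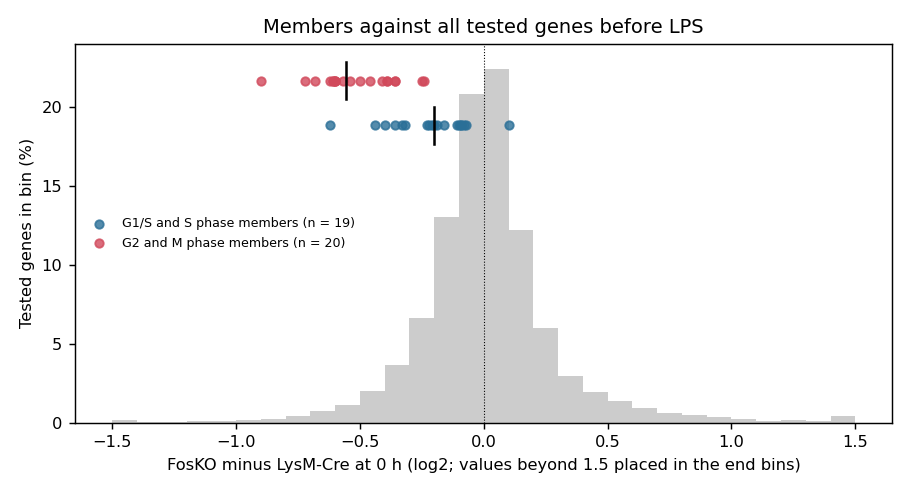
FosKO minus LysM-Cre at 0 h in log2 units (x axis) for all tested genes, as the percent of genes in each bin (grey bars, y axis), with the members as points at an arbitrary height (blue for G1/S and S phase, n = 19, red for G2 and M phase, n = 20) and short black lines at their medians; genes beyond the axis are in the end bins. The blue median lies at -0.20 and the red at -0.56, and 38 of the 39 members lie below 0.

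All 5 spindle and cytokinesis genes were lower, with a median of -0.57, and the smallest p-value of any member was that of Prc1. Prc1, which bundles the microtubules of the central spindle (ENSMUSG00000038943, chromosome 7 from 80294450 to 80316259, GRCm38, plus strand), was 9.66, 9.55 and 9.60 in LysM-Cre and 8.96, 8.82 and 8.87 in FosKO-labelled libraries. The difference was -0.72 (SE 0.07, limma adjusted p 7.99e-08), which is 60.5% of the control level, and the groups did not overlap. Kif11, the motor that pushes spindle poles apart, was 9.45, 9.31 and 9.36 in LysM-Cre and 8.90, 8.73 and 8.77 in FosKO-labelled libraries, a difference of -0.57 (SE 0.08, adjusted p 7.45e-06) without overlap. Nusap1, which binds and stabilises spindle microtubules, was lower by the similar amount of -0.62. Kif23, a kinesin of the central spindle, and Tpx2, which activates Aurora A on the spindle, were lower by less, at -0.25 and -0.24. Tpx2 was 9.54, 9.45 and 9.58 in LysM-Cre and 9.29, 9.13 and 9.42 in FosKO-labelled libraries. Its call (adjusted p 0.0238) was lost without LysM-Cre replicate 1 (-0.24, adjusted p 0.0613), LysM-Cre replicate 3 (-0.22, 0.0859) or FosKO replicate 2 (-0.17, 0.147).

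Among the genes of the centromere and kinetochore, Cenpf stood lowest of all members. Cenpf, a large kinetochore and nuclear matrix protein of G2 and mitosis (chromosome 1 from 189640606 to 189688086, minus strand), was 8.41, 8.33 and 8.52 in LysM-Cre and 7.48, 7.40 and 7.69 in FosKO-labelled libraries. The difference was -0.90 (SE 0.11, adjusted p 2.4e-06), or 53.7% of the control level. Cenpe, the kinesin that carries chromosomes to the spindle equator, was 9.54, 9.40 and 9.53 against 9.08, 9.04 and 9.18, a difference of -0.39 (SE 0.06, adjusted p 5.79e-05). Birc5, which encodes survivin of the chromosomal passenger complex, was lower by -0.60 (adjusted p 0.00036). None of these 3 genes overlapped between the groups.

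All 7 mitotic kinases and cyclins were lower, with a median of -0.50. Plk1, the Polo-like kinase of mitotic entry and spindle assembly, was 7.73, 7.5 and 7.53 in LysM-Cre and 7.04, 6.99 and 6.93 in FosKO-labelled libraries, a difference of -0.60 (SE 0.08, adjusted p 4.63e-06). Ccna2, the cyclin A of S phase and G2, was 9.67, 9.54 and 9.63 against 9.25, 8.91 and 9.05 (-0.54, adjusted p 5.58e-05). Ccnb2 and Ccnb1, the cyclin partners of CDK1 in mitosis, were lower by -0.68 and -0.50, and Cdk1 itself by -0.41. The Aurora kinases Aurka (spindle poles) and Aurkb (chromosomal passenger complex) were lower by -0.39 and -0.36. The call for Aurkb was lost without LysM-Cre replicate 1 (-0.27, adjusted p 0.106), FosKO replicate 2 (-0.32, 0.0708) or FosKO replicate 3 (-0.30, 0.0856) at 0 h. Annotated pseudogenes bear the names of Ccnb1 and Ccnb2, and shared reads between them were not tested.

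The spindle checkpoint and its target were lower too. Bub1, a checkpoint kinase at kinetochores, was 8.63, 8.56 and 8.57 in LysM-Cre and 8.32, 8.01 and 8.33 in FosKO-labelled libraries (-0.36, adjusted p 0.0116). FosKO replicate 2 was the lowest of them, and without it the difference was -0.26 (adjusted p 0.0864). Bub1b, which encodes the checkpoint protein BUBR1, and Cdc20, the activator of the anaphase-promoting complex, each differed by -0.61 (adjusted p 1.93e-05 and 9.42e-06). The proliferation marks followed, with Top2a, the topoisomerase that untangles replicated chromosomes, at 11.42, 11.28 and 11.43 against 10.92, 10.65 and 10.76. That difference of -0.60 had an SE of 0.07 and an adjusted p of 1.2e-06. Mki67, the proliferation antigen Ki-67, was 11.83, 11.77 and 11.94 against 11.41, 11.18 and 11.56 (-0.46, adjusted p 0.00107).

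The 3 enzymes that supply nucleotides were lower, and Rrm2 had the most negative value among the G1/S and S phase members. Rrm2, the regulated subunit of ribonucleotide reductase, was 9.84, 9.63 and 9.82 in LysM-Cre and 9.40, 9.04 and 9.01 in FosKO-labelled libraries, a difference of -0.62 (SE 0.12, adjusted p 0.000269). Rrm1, its large subunit, was 11.25, 11.18 and 11.24 against 11.14, 10.89 and 10.95 (-0.23, adjusted p 0.00354). Tyms, thymidylate synthase, differed by -0.36, a call lost without LysM-Cre replicate 1 (-0.31, adjusted p 0.0858) or FosKO replicate 3 (-0.27, 0.12), and an annotated pseudogene bears its name. The E-type cyclins Ccne1 and Ccne2, which start S phase with CDK2, were lower by -0.40 and -0.44.

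The factor E2f2 was lower by -0.32 (adjusted p 0.0187), and its call was lost without LysM-Cre replicate 1 (-0.28, adjusted p 0.0786) or 3 (-0.30, 0.0629), or without FosKO replicate 2 (-0.32, 0.0506) or 3 (-0.26, 0.0981). E2f1, the activating E2F factor of S phase entry, was 9.93, 9.90 and 9.84 in LysM-Cre and 9.94, 9.74 and 9.72 in FosKO-labelled libraries, and the groups overlapped. Its difference of -0.09 was not called, with a 95% interval from -0.22 to 0.04.

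Of the 6 helicase subunits, Mcm7 (-0.33), Mcm4 (-0.22) and Mcm3 (-0.21) were lower, and Mcm2, Mcm5 and Mcm6 were not called. Mcm6 was 12.12, 12.09 and 12.14 in LysM-Cre and 12.13, 11.95 and 11.94 in FosKO-labelled libraries, with overlapping groups and a difference of -0.11 (95% interval from -0.22 to 0.00). The call for Mcm3 was lost without LysM-Cre replicate 1 (-0.17, adjusted p 0.0916), FosKO replicate 2 (-0.18, 0.0836) or FosKO replicate 3 (-0.16, 0.118), and when only the 6 libraries at 0 h were fitted (-0.21, 0.0624). That for Mcm4 was lost without LysM-Cre replicate 1 (-0.20, adjusted p 0.0532), FosKO replicate 2 (-0.18, 0.0664) or FosKO replicate 3 (-0.18, 0.0672).

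None of the 6 genes of licensing and the fork was called at 0 h by limma, 2 of them having an unadjusted p under 0.05. Pcna, the sliding clamp, was 13.59, 13.57 and 13.61 against 13.61, 13.48 and 13.44, a difference of -0.09 (95% interval from -0.17 to 0.00, adjusted p 0.11). Cdt1, the licensing factor that loads the helicase, had the one positive value among the 39 members, 0.10 (95% interval from -0.03 to 0.23, adjusted p 0.252). In Cdc6, Cdc45, Gins1, Gins2 and Pcna FosKO replicate 1 lay within or above the LysM-Cre range while replicates 2 and 3 lay below it. Without FosKO replicate 1 the number of members called at 0 h went from 29 to 35, and without LysM-Cre replicate 1 it was 23.

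Markers of other cells moved with the genotype at 0 h. Of 6 neutrophil markers, 4 were tested and all 4 were lower in FosKO-labelled libraries, and the log2 of the summed level of the list was 6.31 to 6.77 in LysM-Cre and 5.77 to 6.02 in FosKO. Ly6g, the defining neutrophil marker, stood at the floor of the table in every library (-2.22 to -2.20). Of 8 myeloid progenitor markers, 2 were tested and 1 was lower, with summed levels of 6.05 to 6.33 and 5.88 to 6.09. Elane, Prtn3 and Ctsg of that list lay at -1.73 or lower in every library, and Mpo is not analysed here. The fibroblast sum was 4.67 to 5.0 against 4.13 to 4.60 with 0 of 3 tested markers called by limma (2 at an unadjusted p under 0.05), and the macrophage sum was 17.19 to 17.22 against 17.17 to 17.25. Of the 8 macrophage markers 4 were higher, with Mertk at 0.97 and Fcgr1 at 0.65, and 4 were lower. The part of these cells in the lower level of the members was not tested.

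The genotypes were then compared at each time of LPS. Of the 4 tested neutrophil markers, 3 were lower at 0.5 h and all 4 at 1 and 2 h (median -0.65, -0.93 and -1.06), and of the 2 tested progenitor markers Kit was lower at 0.5 and 1 h (-0.53 at both) and not called at 2 h (-0.27), while Cd34 was higher at 1 and 2 h (0.45 and 0.41). Of the 2 tested dendritic cell markers Xcr1 was higher at 1 h (0.42) and Zbtb46 lower at 2 h (-0.96), and of the 3 fibroblast markers Col3a1 was lower at 2 h (-0.53). Their part in the differences that follow was not tested. At 0.5 h 33 of 39 members were lower and 0 higher (19.7% of all tested genes lower, 40.9% called), with a median of -0.50. At 1 h 28 were lower and 0 higher (15.9% lower, 33.9% called), with a median of -0.36. At 2 h 18 were lower and 3 higher (20.3% lower, 24.4% higher, 44.6% called), with a median of -0.15.

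The G2 and M phase members made up most of these calls, with 20 of 20 lower at 0.5 h. At 1 h 19 of 20 were lower, all but Mki67 (-0.16), and at 2 h 17 of 20, all but Mki67, Cenpe and Tpx2. Of the 19 G1/S and S phase members, 13, 9 and 1 were lower at the 3 times, and the 1 at 2 h was Rrm2 (-0.47). The 3 members higher at 2 h were Cdt1, Pcna and Ccne1, all of G1/S and S phase. The libraries at each time are separate, and the 4 comparisons share no library. Replicate numbers kept some order, however. Within its genotype FosKO replicate 1 had the highest median over the members at all 4 times and LysM-Cre replicate 2 the lowest. The 4 comparisons can therefore not be taken as independent repeats.

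**Figure D2:**
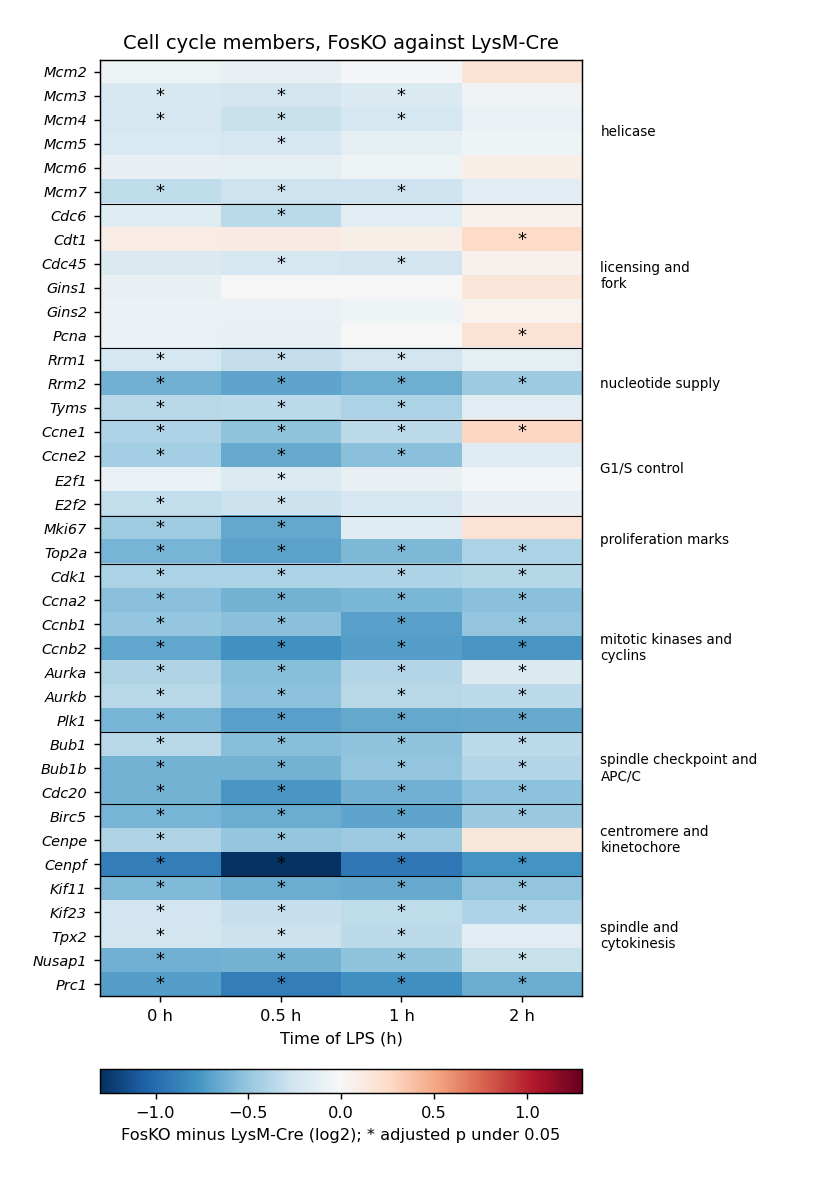
FosKO minus LysM-Cre in log2 units for each of the 39 members (vertical axis, grouped by role) at each time of LPS (horizontal axis, hours), with blue for lower and red for higher in FosKO-labelled libraries and an asterisk for an adjusted p under 0.05. The mitotic groups in the lower part are blue at all 4 times, apart from Mki67 and Cenpe at 2 h (0.19 and 0.15), and the helicase and fork genes in the upper part are pale.

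The mitotic genes with the smallest p-values were chosen in these same comparisons, so the values below describe them and do not test persistence. Prc1 differed by -0.90, -0.80 and -0.64 at 0.5, 1 and 2 h (adjusted p 2.76e-09, 1.92e-08 and 2.01e-07). Its libraries at 2 h were 9.37, 9.17 and 9.35 in LysM-Cre and 8.75, 8.55 and 8.66 in those labelled FosKO. The groups did not overlap at any time.

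Cenpf differed by -1.28 at 0.5 h, where it was 8.54, 8.53 and 8.56 against 7.36, 7.25 and 7.18, so that FosKO-labelled libraries held 41.2% of the control level. At 1 and 2 h its difference was -0.93 and -0.78. Plk1 differed at the same times by -0.71, -0.67 and -0.66 and Kif11 by -0.65, -0.66 and -0.51, all called. Top2a was lower by -0.70 and -0.58 at 0.5 and 1 h and by -0.41 at 2 h, where its libraries were 11.18, 11.02 and 11.07 against 10.77, 10.64 and 10.63. Ccnb2 (-0.79, -0.72 and -0.76), Ccna2 (-0.61, -0.59 and -0.54) and Cdc20 (-0.76, -0.62 and -0.53) were lower at the 3 times as well.

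**Figure D3:**
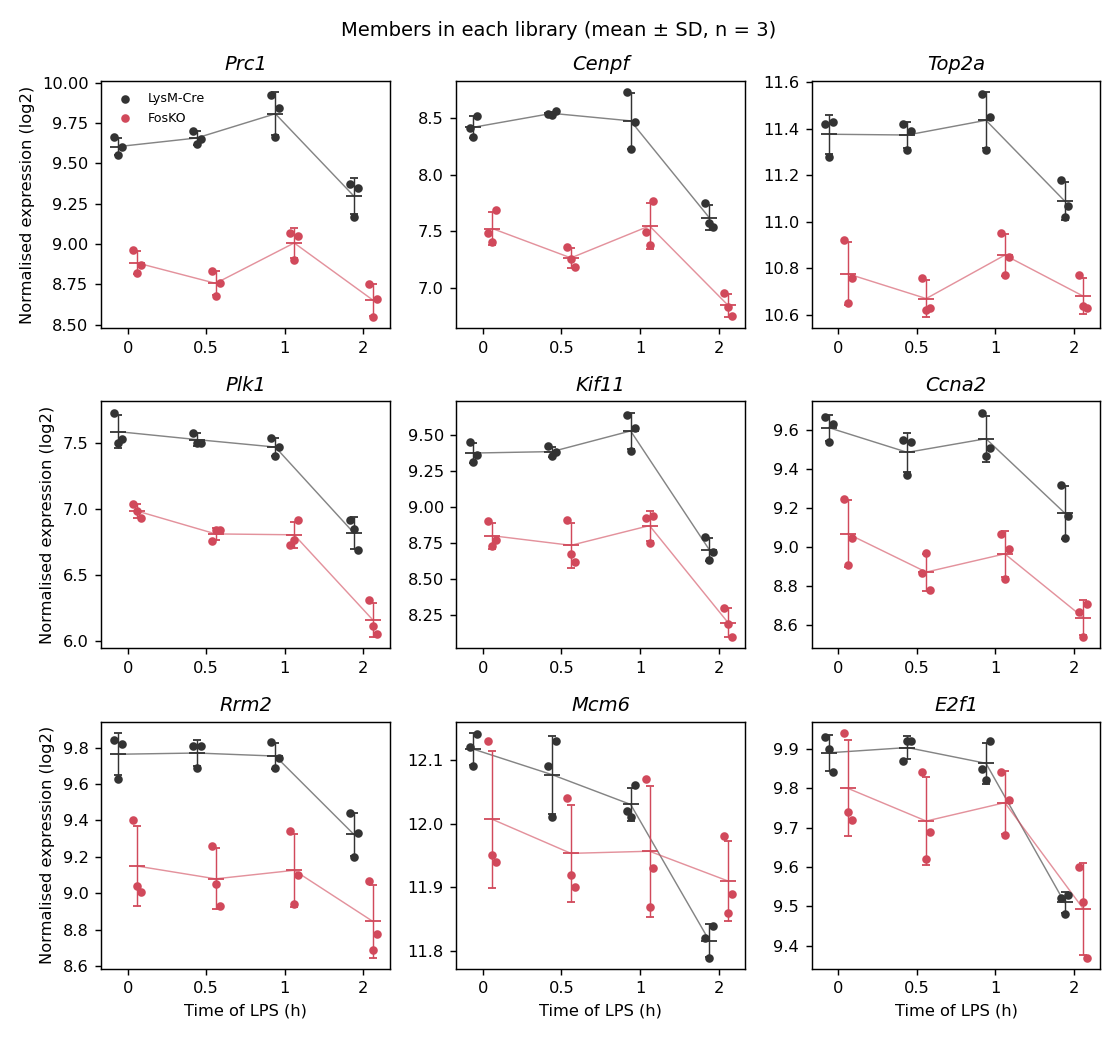
Normalised expression in log2 units (y axis, each panel with its own range) against the time of LPS in hours (evenly spaced) for 9 members, with each library as a point, the mean as a horizontal tick joined by lines, and bars for the SD (n = 3), LysM-Cre in black and FosKO in red. Prc1, Cenpf, Plk1 and Ccna2 show separate groups at every time, whereas Mcm6 and E2f1 overlap at 0 h.

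A smaller share of the replication genes than of the mitotic genes was called after LPS. Mcm3, Mcm4 and Mcm7 were lower at 0.5 h (-0.24, -0.29 and -0.27) and 1 h (-0.19, -0.23 and -0.27) and none of them was called at 2 h. Their calls at 1 h were lost without FosKO replicate 2 (-0.15, -0.18 and -0.22), and those for Mcm3 and Mcm7 also without LysM-Cre replicate 3 (-0.16 and -0.26) or FosKO replicate 3 (-0.17 and -0.24). The 1 h call for Mcm3 was kept under 7 of 15 alternatives. It was also lost with the 18S set as a term (-0.15, adjusted p 0.0618), without a filter (-0.19, 0.0591) or without LysM-Cre replicate 1 or 2 (-0.20 each). In high 18S libraries alone, with 1 control, the difference for Mcm3 was -0.23. At 0.5 h the call for Mcm7 was lost without FosKO replicate 3 (-0.21, adjusted p 0.097) or LysM-Cre replicate 1 or 3 (-0.25 each), and those for Mcm5, Cdc6, Cdc45, Tyms, E2f1, E2f2 and Tpx2 were each lost without at least 1 library. Mcm2, Mcm6, Gins1 and Gins2, the last pair being subunits of the GINS complex of the fork, were called at no time. Mcm6 differed by -0.12, -0.07 and 0.09, with 95% intervals that reached no further than -0.23 and 0.20. Pcna differed by -0.10 and -0.01 at 0.5 and 1 h, neither called, and by 0.19 at 2 h. Rrm2 was lower throughout, at -0.69, -0.63 and -0.47.

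At 2 h Cdt1, Pcna and Ccne1 were called higher, and with median centring, with the 3-level replicate block or in high 18S libraries alone 6 members were. Cdt1, whose difference was positive but not called at the earlier times (0.10, 0.11 and 0.08), was 8.64, 8.63 and 8.55 in LysM-Cre and 8.88, 8.86 and 8.82 in FosKO-labelled libraries, a difference of 0.25 (SE 0.06, adjusted p 0.00287) without overlap. Pcna was 13.62, 13.61 and 13.63 against 13.86, 13.75 and 13.82 (0.19, SE 0.04, adjusted p 0.000644), a call lost under quantile normalisation (0.03, adjusted p 0.609). Annotated Pcna pseudogenes exist, and shared reads were not tested. Ccne1 was 7.19, 7.06 and 7.09 against 7.39, 7.30 and 7.47 (0.27, SE 0.09, adjusted p 0.0177). Its call was lost without LysM-Cre replicate 2 (0.25, adjusted p 0.064) or FosKO replicate 3 (0.23, 0.0743) at 2 h.

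Aurka was lower by -0.19 at 2 h, and its call was lost under both other scalings (-0.14 under quantile normalisation and -0.15 with median centring) and without FosKO replicate 2 (-0.12, adjusted p 0.207). At the same time Bub1 was lower by -0.34, a call lost without FosKO replicate 3 (-0.28, adjusted p 0.0661). Aurkb was also lower by -0.34, and that call was lost without LysM-Cre replicate 1 (-0.31, adjusted p 0.0718) or FosKO replicate 3 (-0.30, 0.0703). Tpx2 was 9.50, 9.36 and 9.47 against 9.31, 9.23 and 9.33 and was not called (-0.15, 95% interval from -0.32 to 0.01).

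The libraries at 0.5 and 1 h differed in 18S content, so the genotype difference was also read within each 18S set, without a test. At 0.5 h 38 members were lower in FosKO-labelled libraries in the high set (median -0.51, 2 libraries of each genotype) and 37 in the low set (median -0.43, 1 of each). At 1 h all 39 were lower in the high set (median -0.50, 2 libraries labelled FosKO against 1 control) and 32 in the low set (median -0.21, 1 against 2). Prc1 differed by -0.94 and -0.68 in the high and the low set at 1 h, and Cenpf by -1.16 and -0.86. In the same order, the median was -0.71 and -0.42 for G2 and M phase members and -0.31 and -0.03 for G1/S and S phase members. Bub1 differed by -0.77 and -0.20, and E2f2 (-0.51 and 0.12) and Cdc6 (-0.35 and 0.14) were among the members that changed sign. All libraries at 0 and 2 h were in the high set.

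Responses to LPS were taken in LysM-Cre and in FosKO separately, against the 0 h libraries, which the 3 times share. At 0.5 h limma called 0 of 39 members in LysM-Cre (2 at an unadjusted p under 0.05, against 7.24% of all tested genes called) and 0 in FosKO-labelled libraries (5 unadjusted, against 5.92% called), where the replicate number as a block gave 2 lower with 3 levels and 4 lower with 6 levels (the number within genotype). At 1 h 7 members rose and 3 fell in LysM-Cre (35.8% of tested genes called), where 2 of the 3 libraries were low in 18S and the 18S set as a term gave 4 higher and 7 lower. At that time 5 rose and 3 fell in FosKO-labelled libraries (32.6% called). The 6-level block gave 10 higher and 10 lower at 1 h in LysM-Cre and 7 higher and 7 lower in FosKO-labelled libraries. The share of all tested genes called was counted without a block only. At 2 h 1 rose and 32 fell in LysM-Cre (60.8% called, with 4248 of 13901 tested genes higher and 4200 lower), with a median of -0.39 over the members and -0.016 over all tested genes. Under the FosKO label 3 rose and 24 fell at 2 h (62.1% called, 4530 higher and 4106 lower), with a median of -0.25 against 0.005. Markers of other cells moved at 2 h as well. In LysM-Cre 4 of 4 tested neutrophil markers (median 0.64) and 2 of 2 dendritic cell markers (median 2.05) rose and 1 of 2 progenitor markers fell. With the FosKO label 3 of 4 neutrophil markers (median 0.46) and 2 of 2 dendritic cell markers (median 1.48) rose and 0 of 2 progenitor markers were called by limma (0 at an unadjusted p under 0.05). Their part in the members' changes was not tested.

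Without a replicate block, a smaller share of the members than of all tested genes was called at 1 h in both genotypes. Of 13901 tested genes 2673 rose and 2297 fell in LysM-Cre, and 2447 rose and 2087 fell in FosKO-labelled libraries. The share of members that rose in LysM-Cre was near that of all tested genes. The members that rose at 1 h were mitotic genes, apart from Pcna in FosKO-labelled libraries. In LysM-Cre they were Mki67 (1.18), Aurka (0.34), Cenpe (0.33), Cdc20 (0.30), Ccnb1 (0.26), Prc1 (0.20) and Kif23 (0.17), all of G2 and M phase. The 3 that fell were the licensing factors Cdc6 (-0.35) and Cdt1 (-0.34) and the factor E2f2 (-0.43). In FosKO-labelled libraries Mki67 (1.48), Aurka (0.35), Cdc20 (0.29), Cenpe (0.25) and Pcna (0.13) rose, and Cdt1 (-0.36), E2f2 (-0.32) and Birc5 (-0.31) fell. Of these calls, 4 of 10 in LysM-Cre and 4 of 8 in FosKO-labelled libraries were kept under every alternative tried, and in both genotypes these were Cdt1, Mki67, Aurka and Cenpe. Without LysM-Cre 0 h replicate 2 the changes of Ccnb1 (0.18), Kif23 (0.13), Prc1 (0.17) and Cdc6 (-0.39) were not called (adjusted p from 0.0577 to 0.137). Without FosKO 0 h replicate 1 those of E2f2 (-0.25) and Birc5 (-0.16) were not, and without FosKO 0 h replicate 3 those of Cdc20 (0.22) and Pcna (0.09) were not. With low 18S libraries left out, 1 LysM-Cre library remained at 1 h, and the changes were -0.28 for E2f2, -0.25 for Cdc6, 0.36 for Cdc20 and 0.24 for Kif23. In FosKO-labelled libraries Cdc20 (0.28, adjusted p 0.0547), Pcna (0.09, 0.168) and Birc5 (-0.34, 0.0763) were then not called. The rise of Pcna at 1 h was -0.11 under quantile normalisation (adjusted p 0.0814).

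At 2 h the largest falls were in G1/S genes of licensing and transcription. E2f2, an E2F factor, was 8.64, 8.41 and 8.6 before LPS and then 6.64, 6.71 and 6.58 in LysM-Cre, a fall to 26.7% (-1.91, SE 0.10, adjusted p 1.29e-12). In FosKO-labelled libraries it went from 8.37, 8.21 and 8.10 to 6.54, 6.57 and 6.48 (-1.69, adjusted p 8.19e-12), and neither genotype had overlap between the times. Cdc6, which recruits the helicase to origins, fell by 1.78 in the control and by 1.56 in FosKO-labelled libraries, to 29.1% and 33.9%. The control libraries went from 8.20, 8.03 and 8.10 to 6.53, 6.27 and 6.18, and the others from 8.09, 7.85 and 7.90 to 6.70, 6.23 and 6.23.

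Cdt1 fell from 9.91, 9.86 and 9.88 to 8.64, 8.63 and 8.55 in LysM-Cre (-1.28, SE 0.06, adjusted p 2.57e-13) and from 10.14, 9.95 and 9.84 to 8.88, 8.86 and 8.82 in FosKO-labelled libraries (-1.13, adjusted p 1.92e-12). Ccne2 fell by 1.22 and 0.95 in LysM-Cre and in FosKO-labelled libraries. The helicase genes fell less, with changes from -0.58 (Mcm2) to -0.25 (Mcm5) in LysM-Cre, where all 6 were called. In FosKO-labelled libraries 4 of the 6 were called, from -0.33 (Mcm2) to -0.24 (Mcm3), and Mcm7 (-0.27) lost its call without FosKO 0 h replicate 1 (-0.16, adjusted p 0.102). Mcm6 fell from 12.12, 12.09 and 12.14 to 11.82, 11.79 and 11.84 in LysM-Cre (-0.30, adjusted p 4.5e-05), and its libraries labelled FosKO lay at 12.13, 11.95 and 11.94 and then at 11.98, 11.86 and 11.89, which was not called.

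E2f1 was 9.52, 9.48 and 9.53 at 2 h in LysM-Cre and 9.60, 9.51 and 9.37 in FosKO-labelled libraries, falls of 0.39 and 0.31. Among the 20 G2 and M phase members Kif23 fell most, from 9.24, 9.13 and 9.25 to 8.44, 8.25 and 8.40 in LysM-Cre (-0.84, SE 0.06, adjusted p 8.82e-11). In FosKO-labelled libraries it went from 9.0, 8.93 and 8.94 to 8.07, 7.90 and 7.92 (-1.0, adjusted p 5.01e-12). Cenpf (-0.80 and -0.68), Bub1b (-0.79 and -0.56), Plk1 (-0.77 and -0.82), Aurkb (-0.69 and -0.67) and Kif11 (-0.67 and -0.60) fell in LysM-Cre and in FosKO-labelled libraries. Top2a fell in LysM-Cre (-0.29), and its change in FosKO-labelled libraries was -0.10 and was not called.

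Mki67 rose against the general direction at 2 h. In LysM-Cre it was 11.83, 11.77 and 11.94 before LPS, 11.95, 12.10 and 12 at 0.5 h, then 13.24, 12.93 and 12.91, and finally 12.88, 13.02 and 12.94 with 2 h of LPS. With the FosKO label it was 11.41, 11.18 and 11.56, then 11.38, 11.26 and 11.39, then 12.74, 12.73 and 13.13, and at 2 h 13.10, 13.17 and 13.12. The libraries at 1 and 2 h lay above those at 0 and 0.5 h in both genotypes. The rise at 2 h was 1.1 in LysM-Cre (SE 0.10, adjusted p 5.72e-09) and 1.75 in FosKO-labelled libraries (adjusted p 3.11e-12), or 214% and 336% of the 0 h level. The members called higher at 2 h in FosKO-labelled libraries were Mki67, Ccne1 (0.34) and Pcna (0.30), and Pcna was -0.13 under quantile normalisation (adjusted p 0.0253).

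**Figure D4:**
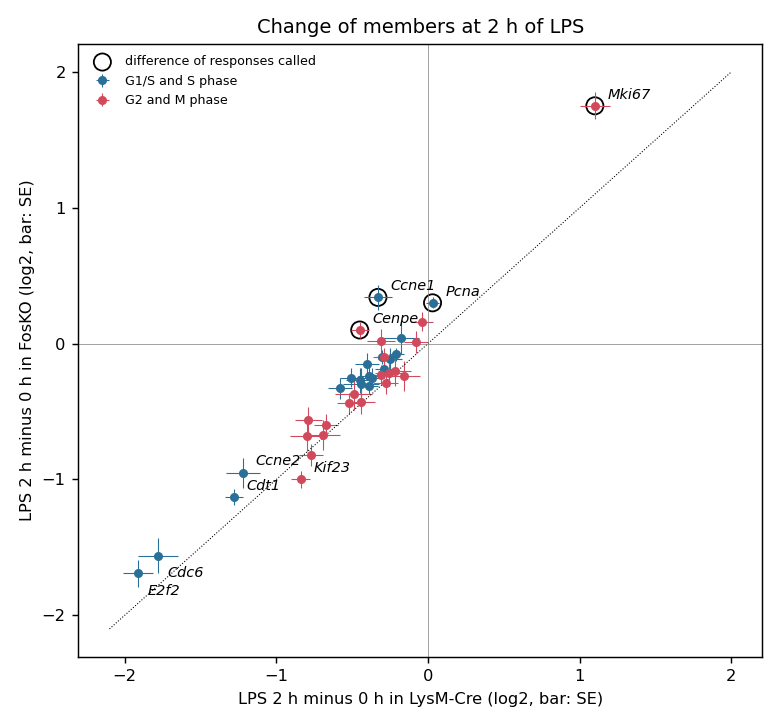
Change from 0 h to 2 h of LPS in log2 units for each member in LysM-Cre (x axis) and in FosKO-labelled libraries (y axis), with bars for the SE, blue for G1/S and S phase, red for G2 and M phase, a dotted line of equal change and open circles for the members whose responses differed. E2f2, Cdc6 and Cdt1 lie lowest on both axes, and Mki67 lies alone at the upper right.

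Whether the responses themselves differed was tested as the change in FosKO-labelled libraries minus that in LysM-Cre. Limma called 0 of 39 members at 0.5 h (1 at an unadjusted p under 0.05, with 0.115% of tested genes called) and 0 at 1 h (1 unadjusted, with 1.22% called). At 2 h 4 members had a positive difference and 0 a negative one, where 15.0% of tested genes were called and 7.27% were positive. In this fit, without a replicate block, the share of members called was below that of all tested genes, and the share called positive was near it. Without FosKO 0 h replicate 1, or with libraries centred on their median, 7 members were called, all positive. With the replicate number as a block the counts were 9 positive and 0 negative (3 levels) or 14 positive and 1 negative (6 levels within genotype). The share of all tested genes called was not counted with either block. The median over the members was 0.14, with 35 positive and 4 negative values, against 0.017 over all tested genes. All 19 G1/S and S phase members had positive values, from 0.08 to 0.67, of which 2 were called.

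The 4 members called without the block were Ccne1, Mki67, Cenpe and Pcna. Ccne1 had the largest difference, 0.67 (SE 0.13, adjusted p 0.000988). In LysM-Cre its libraries went from 7.46, 7.42 and 7.46 to 7.19, 7.06 and 7.09, a fall of 0.33, and from 7.21, 7.02 and 6.92 to 7.39, 7.30 and 7.47 in FosKO-labelled libraries, a rise of 0.34.

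Mki67 differed by 0.65 (SE 0.14, adjusted p 0.00334), with a genotype difference of -0.46 at 0 h and 0.19 at 2 h. Cenpe differed by 0.54 (SE 0.09, adjusted p 0.000245) and moved in LysM-Cre from 9.54, 9.40 and 9.53 to 9.16, 9.0 and 8.96, a fall of 0.45. With the FosKO label it lay at 9.08, 9.04 and 9.18 and then at 9.22, 9.21 and 9.15, and that change was not called. Pcna differed by 0.28 (SE 0.06, adjusted p 0.00211), with 13.59, 13.57 and 13.61 then 13.62, 13.61 and 13.63 in LysM-Cre and 13.61, 13.48 and 13.44 then 13.86, 13.75 and 13.82 in FosKO-labelled libraries. Under quantile normalisation the difference for Pcna was 0.20 (adjusted p 0.0542).

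**Figure D5:**
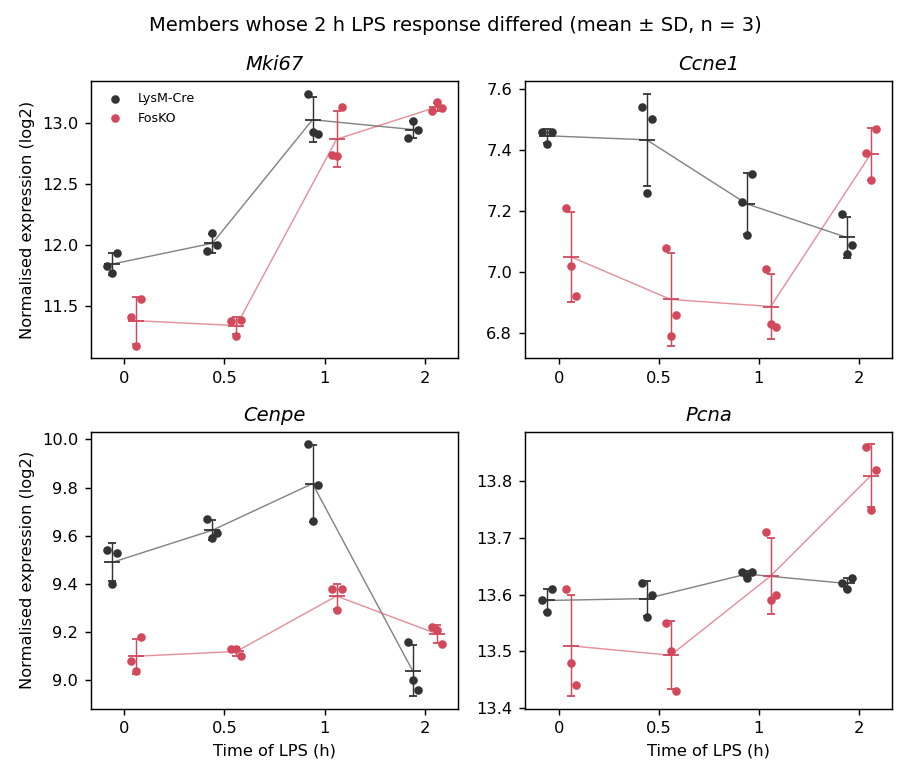
Normalised expression in log2 units (y axis, each panel with its own range) against the time of LPS in hours (evenly spaced) for the 4 members whose 2 h response differed, with each library as a point and the mean and SD (n = 3) as ticks and bars, LysM-Cre in black and FosKO in red. At 2 h Ccne1 and Pcna are higher in the red groups (by 0.27 and 0.19), having been lower (-0.40) or not called (-0.09) at 0 h.

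Genes that act beside the members were counted from lists of replication factors, mitotic genes, G1 regulators, CDK inhibitors, CSF1 and GM-CSF genes and histones. Their counts at 0 h stand beside 15.9% of all tested genes called lower and 19.5% called higher. Of 35 other mitotic genes, 31 were lower and 1 higher in FosKO-labelled libraries at 0 h, with a median of -0.41. Ube2c, the ubiquitin-conjugating enzyme of the anaphase-promoting complex, was 8.43, 8.23 and 8.34 in LysM-Cre and 7.75, 7.53 and 7.71 in FosKO-labelled libraries (-0.66, adjusted p 1.24e-06). Kif20a, a kinesin of cytokinesis, differed by -0.83, and Ckap2l, a mitotic spindle protein, by -0.50.

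Of 30 other replication genes, 12 were lower and 2 higher at 0 h, with a median of -0.18. The 2 higher were Timeless, a fork protection factor (0.29), and Rfc2, a subunit of the clamp loader (0.23), while Pole, the leading strand polymerase, was lower (-0.36). At 2 h of LPS 28 of these 30 fell in LysM-Cre and 23 in FosKO-labelled libraries, with 0 rising in either, while 4200 and 4106 of the 13901 tested genes fell. Of the 35 mitotic genes, 29 fell and 2 rose in LysM-Cre and 27 fell and 4 rose in FosKO-labelled libraries.

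Of 7 CDK inhibitors, 4 were lower and 1 higher at 0 h. Cdkn1a, which encodes p21, was the one higher, at 13.22, 13.05 and 13.06 in LysM-Cre and 13.51, 13.54 and 13.65 in FosKO-labelled libraries (0.46, adjusted p 2.52e-06). Cdkn2c, which encodes p18, was lower by -0.61, and Cdkn2b, which encodes p15, by -0.59. With 2 h of LPS Cdkn1a rose by 2.40 in the control and by 2.18 in FosKO-labelled libraries, the difference between the rises not being called (-0.22, adjusted p 0.069).

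Of 17 G1 cyclins, CDKs and pocket proteins, 3 were higher at 0 h (a share near that of all tested genes) and 6 were lower. Ccnd2, a D-type cyclin, was 9.64, 9.42 and 9.62 against 10.28, 10.31 and 10.51 (0.81, adjusted p 2.69e-06), and it rose by 2.16 and 1.77 with 2 h of LPS. Cdk2, the partner of the E and A cyclins, and Rbl2, the pocket protein p130, were lower by -0.22 and -0.19. Csf1, the growth factor of macrophages, was 9.84, 9.75 and 9.72 in LysM-Cre and 10.82, 11.05 and 11.03 in FosKO-labelled libraries (1.2, adjusted p 8.14e-12). Its receptor gene Csf1r was lower by -0.14 (adjusted p 0.0106), and Csf2ra, the receptor chain for GM-CSF, was not called (0.06). Of 65 replication-dependent histone genes, 15 were tested and 1 was called at 0 h, Hist2h2be (-0.35), while the differences of Hist1h2ah (-0.81) and Hist2h3c2 (0.27) were not called.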

How the data were processed

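RNA sequencing libraries of LysM-Cre and FosKO BMDMs (24 in all) were analysed from the table of normalised log2 values that the authors deposited. Per the methods and the submitters' processing notes, the authors used STAR 2.5.2a, RSEM 1.2.31 and DESeq2 (1.16.1 in the notes, an earlier version in the methods) and RefSeq genes of mm10, whereas the table carries Ensembl identifiers. The values resemble a regularised log, which pulls low genes towards their mean and so understates their differences. The depth of each library is unknown, and no counting interval was computed.

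Genes with a linear value (2 to the power of the log2 value) of at least 5 in at least 3 libraries were tested. One limma fit (limma 3.58.1, R 4.3.3) with 8 group means and trended empirical Bayes left 16 residual degrees of freedom, gave 13 comparisons, and p-values were adjusted by Benjamini-Hochberg over all 13901 tested genes, with calls at an adjusted p under 0.05. Coordinates are GENCODE genes of GRCm38, and promoters are RefSeq. Alternatives were quantile normalisation, median centring, other filters, a pseudocount of 1, replicate blocks, the 18S set as a term, high 18S libraries alone, only the groups compared, and leaving out each library.

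Members and lists were chosen with earlier results of these data known. Values per library are given for the member with the highest mean value in each role group (a choice of what to show, not a comparison of levels), for the 3 smallest adjusted p-values in each genotype comparison, in each 2 h LPS comparison and in the 2 h difference of responses, and for Rrm2 and Cdc6, which were added after their values were seen. Other members are named with their differences. Members called against the main direction, and the 3 smallest p-values of each related list at 0 h, are also named.

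The fit has no replicate block. Same-numbered libraries deviated together in every pair (correlation over 0.1) only for LPS 0.5 h in FosKO (0.19, 0.13 and 0.27), where the blocked counts are given beside the result.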

Additional observations from a re-analysis of the deposited data

Results flagged for a closer look

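The LPS response of 4 members differed between the genotypes at 2 h by the limma test of the difference itself, given as the change in the libraries labelled FosKO minus that in LysM-Cre. The difference was 0.67 for Ccne1 (adjusted p 0.000988), 0.65 for Mki67 (adjusted p 0.00334), 0.54 for Cenpe (adjusted p 0.000245) and 0.28 for Pcna (adjusted p 0.00211). Of all tested genes 15.0% were called in this comparison and 7.27% were positive. Without a replicate block, the share of members called was below the first of these and near the second. With the replicate number as a block 9 members were called (3 levels) or 15 (6 levels within genotype). The share of all tested genes called was not counted with either block. Each of the 4 genes had a lower mean in the libraries labelled FosKO at 0 h, and the comparison shares the 0 h libraries with both responses.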

How the results depend on the processing

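Calls of members kept their direction and side of the threshold under every alternative for 22 of 29 members at 0 h, 25 of 33 at 0.5 h, 23 of 28 at 1 h and 16 of 21 at 2 h between the genotypes, for 32 of 33 in LysM-Cre and 19 of 27 in the libraries labelled FosKO at 2 h of LPS, and for 3 of 4 in the difference of responses at 2 h. Called values changed sign only for Pcna in the libraries labelled FosKO under quantile normalisation (-0.11 at 1 h, adjusted p 0.0814, and -0.13 at 2 h, adjusted p 0.0253).

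Replicate numbers were tried as a block, with 3 levels or with 6 levels within genotype. Correlations between same-numbered libraries were -0.53 to 0.31 across genotypes and 0.01 to 0.24 in the other LPS comparisons within a genotype, where all were positive but not every pair was over 0.1. Within a genotype, FosKO replicate 1 had the highest median over the members at all 4 times and LysM-Cre replicate 2 the lowest. With 6 levels the members called at 0.5 h in LysM-Cre went from 0 to 1, at 1 h in LysM-Cre from 10 to 20, at 0.5 h in FosKO from 0 to 4, at 1 h in FosKO from 8 to 14, and in the difference at 2 h from 4 to 15 (14 positive and 1 negative). With 3 levels the count at 0.5 h in FosKO was 2 and that of the difference at 2 h was 9. For these blocked fits the share of all tested genes called was not counted.

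In the high 18S libraries alone, 6 members were called at 1 h in LysM-Cre and 1 at 0.5 h in FosKO. With only the groups compared, 4 were called at 1 h in FosKO. With libraries centred on their median, 7 were called in the difference at 2 h. Leaving out 1 library at a time gave 6 to 10 members at 1 h in LysM-Cre (6 without LysM-Cre 0 h replicate 2) and 4 to 7 in the difference at 2 h (7 without FosKO 0 h replicate 1). The genotype counts ranged from 23 to 35 at 0 h, 26 to 36 at 0.5 h, 23 to 29 at 1 h and 19 to 23 at 2 h. Quantile normalisation also moved the share of higher calls over all genes, between the genotypes from 55.1% to 45.3% at 0 h, 51.9% to 45.6% at 0.5 h, 53.1% to 42.8% at 1 h and 54.6% to 43.0% at 2 h, and for LPS from 70.3% to 48.3%, 53.8% to 37.6% and 50.3% to 40.0% at 0.5, 1 and 2 h in LysM-Cre and from 75.2% to 50.5%, 54.0% to 35.3% and 52.5% to 39.2% in FosKO, and median centring moved it from 48.5% to 59.1% in the difference at 2 h. The cause of these changes was not tested. Depth is unknown. If the values are a regularised log, which they resemble, small differences of low members may be understated.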
